A study of Mus musculus with 42 samples.

Results

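The transcripts of 9 barrier genes were followed in the lungs of newborn mice that lack or carry Nfe2l2, the gene of the transcription factor NRF2. They are 5 claudins (Cldn3, Cldn4, Cldn5, Cldn7 and Cldn18), 3 other tight junction genes (Ocln, Tjp1 and F11r) and the adherens junction gene Cdh1. Members were listed by gene name, with earlier results of these data known, and are 9 of the 18194 genes measured. Each is read by the probe set (a group of oligonucleotides for 1 transcript) with the highest mean over all 42 arrays, and 15 probe sets in all carry 1 of the 9 symbols.

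Whole lung homogenates were hybridised to Affymetrix 3′ expression arrays, 1 mouse per array, in 14 groups of 3. Knockout pups (KO, labelled Nrf-/-) breathed 100 percent oxygen (at least 95 percent) for 1, 2 or 3 days and were sampled at P2, P3 and P4, or stayed in room air and were sampled at P1, P2, P3 and P4. Wild-type pups (WT, labelled Nrf+/+) formed the same 7 groups. P1 is the day of birth, exposure started then and ran 23 h a day, and pups of every group were kept with foster dams. The knockout is labelled with no tissue restriction, and the strain of the mice is not given in the sources used here.

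Tight junctions seal the space between neighbouring cells. Claudins form their strands and set which ions and solutes pass, occludin and the adhesion molecule encoded by F11r (JAM-A) sit beside them, and the scaffold ZO-1, encoded by Tjp1, ties them to actin. E-cadherin, encoded by Cdh1, holds epithelial cells together just below. In the lung Cldn18 is the characteristic claudin of the alveolar epithelium, Cldn3, Cldn4 and Cldn7 are epithelial claudins, and Cldn5 is the main claudin of blood vessels.

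Nfe2l2 signal lay between 4.26 and 5.46 on the 21 KO arrays and between 10.32 and 11.56 on the 21 WT arrays (log2 units here and throughout), and the NRF2 target Nqo1 differed by -1.56 ± 0.09 between KO and WT pups in hyperoxia (standard error, SE; adjusted p = 6.88e-14, limma). Defining markers of alveolar type 1 cells (13 genes), alveolar type 2 cells (11), general epithelium (6) and endothelium (15) were all above background in their means over all 42 arrays. Array medians were 6.31 to 6.40, arrays of 1 group correlated across genes with r of 0.959 to 0.997, and 34 of 42 arrays were most like an array of their own group. Transcripts of other organs (liver, muscle, thymus, fat or skin) exceeded their median over all arrays by more than 2 units on 19 arrays, 5 of KO and 14 of WT pups.

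Cldn4 (chr5:134945123-134946934) and Cldn3 (chr5:134986214-134987476) are neighbours, 39279 bases apart, in the assembly GRCm38.p6. Cldn5 lies at chr16:18776847-18778262, Cldn7 at chr11:69964779-69967886 and Cldn18 at chr9:99690796-99717267. Ocln lies at chr13:100496504-100552718, Tjp1 at chr7:65296165-65527850, F11r at chr1:171437561-171464593 and Cdh1 at chr8:106603350-106670247. RefSeq promoters of the same assembly were at hand for 8 members, in 11 windows, and 3 are shown because Cldn4 moved most with oxygen, Cldn3 is its neighbour, and Cldn18 differed between the genotypes. Each is the 250 bases before the annotated start, read 5′ to 3′ on the gene's strand: the Cldn4 window is chr5:134946935-134947184 on the minus strand, the Cldn3 window chr5:134985964-134986213 on the plus strand, and the window of the upstream Cldn18 start chr9:99717268-99717517 on the minus strand. Capitals mark matches to the motifs below.
Cldn4: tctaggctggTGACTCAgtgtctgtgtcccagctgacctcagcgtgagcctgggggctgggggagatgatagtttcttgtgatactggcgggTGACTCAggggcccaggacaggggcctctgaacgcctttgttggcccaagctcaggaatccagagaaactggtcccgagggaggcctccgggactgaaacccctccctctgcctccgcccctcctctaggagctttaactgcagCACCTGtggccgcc
Cldn3: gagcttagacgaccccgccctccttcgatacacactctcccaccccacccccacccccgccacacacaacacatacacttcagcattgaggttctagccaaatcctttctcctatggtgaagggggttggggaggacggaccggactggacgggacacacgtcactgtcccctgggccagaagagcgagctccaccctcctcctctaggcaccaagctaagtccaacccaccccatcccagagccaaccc
Cldn18: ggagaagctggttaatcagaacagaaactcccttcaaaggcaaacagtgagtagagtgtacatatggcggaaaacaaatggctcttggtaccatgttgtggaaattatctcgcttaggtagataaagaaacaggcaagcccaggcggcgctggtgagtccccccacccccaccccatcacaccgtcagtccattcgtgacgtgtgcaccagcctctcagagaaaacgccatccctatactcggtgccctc

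Both strands of each window and of the first 50 bases after the start, 300 bases in all, were searched for 5 motifs, none of which overlapped another. The AP-1 motif TGANTCA occurred in windows of 2 of the 8 members, Cldn4 and F11r, against 7.81% of all 32851 promoter windows. Cldn4 held it at 2 places, from -240 to -234 and from -158 to -152 counted from the start. The E-box CACCTG, which the repressors SNAIL and ZEB can bind, occurred in 5 of the 8 members (Cldn3, Cldn4, Cldn7, Ocln and F11r), against 20.2% of all windows; in Cldn4 1 match lay from -14 to -9, and in Cldn3 the match lay after the start. A Grainyhead motif AACCNGTT was found in Cldn5 (2.09% of all windows) and a STAT motif TTCNNNGAA in Cldn7 (8.30%). The core of the antioxidant response element, TGACNNNGC, through which NRF2 acts, was found in 0 of the 8 members against 12.4% of all windows. A member was counted if any of its windows matched, and some members had more than 1. The shares over all windows are per window, so the counts and the shares are not on the same footing. These matches describe letters in the windows and are not binding sites shown by any measurement.

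Cldn4 varied far more over the 14 groups than the other members. Its group means spanned 3.40, against a pooled standard deviation (SD) within groups of 0.26. Spans were 1.50 for Cldn3, 1.23 for Ocln, 1.01 for Cldn18, 0.92 for Cldn7 and 0.75 for Cldn5, and the scaffold gene Tjp1 (0.57), Cdh1 (0.56) and F11r (0.47) spanned least. All 9 stood well above the dim end of the arrays, whose 10th percentile had a median of 4.27, since the lowest single value of any member was 7.70, for Cldn4 in a WT pup at P4 in air. Levels are not compared between genes, because probe sets differ in brightness.

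The order of the groups differed from member to member. For Cldn4 the 2 groups after 3 days of hyperoxia were highest, KO with a mean of 10.93 and WT with 11.29, and no array of any other group reached them. Next came both P1 groups and KO pups at P3 in air, at 9.33 (KO at P1), 9.74 (WT at P1) and 9.22 (KO at P3). The 2 P4 groups in air were lowest, KO with 7.89 and WT with 7.95. Arrays of 9 of the 13 pairs of neighbours in that order overlapped, and 4 did not. For Cldn18 and Ocln arrays overlapped between all 13 neighbouring pairs, and for the other members between 12 of 13.

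**Figure D1:**
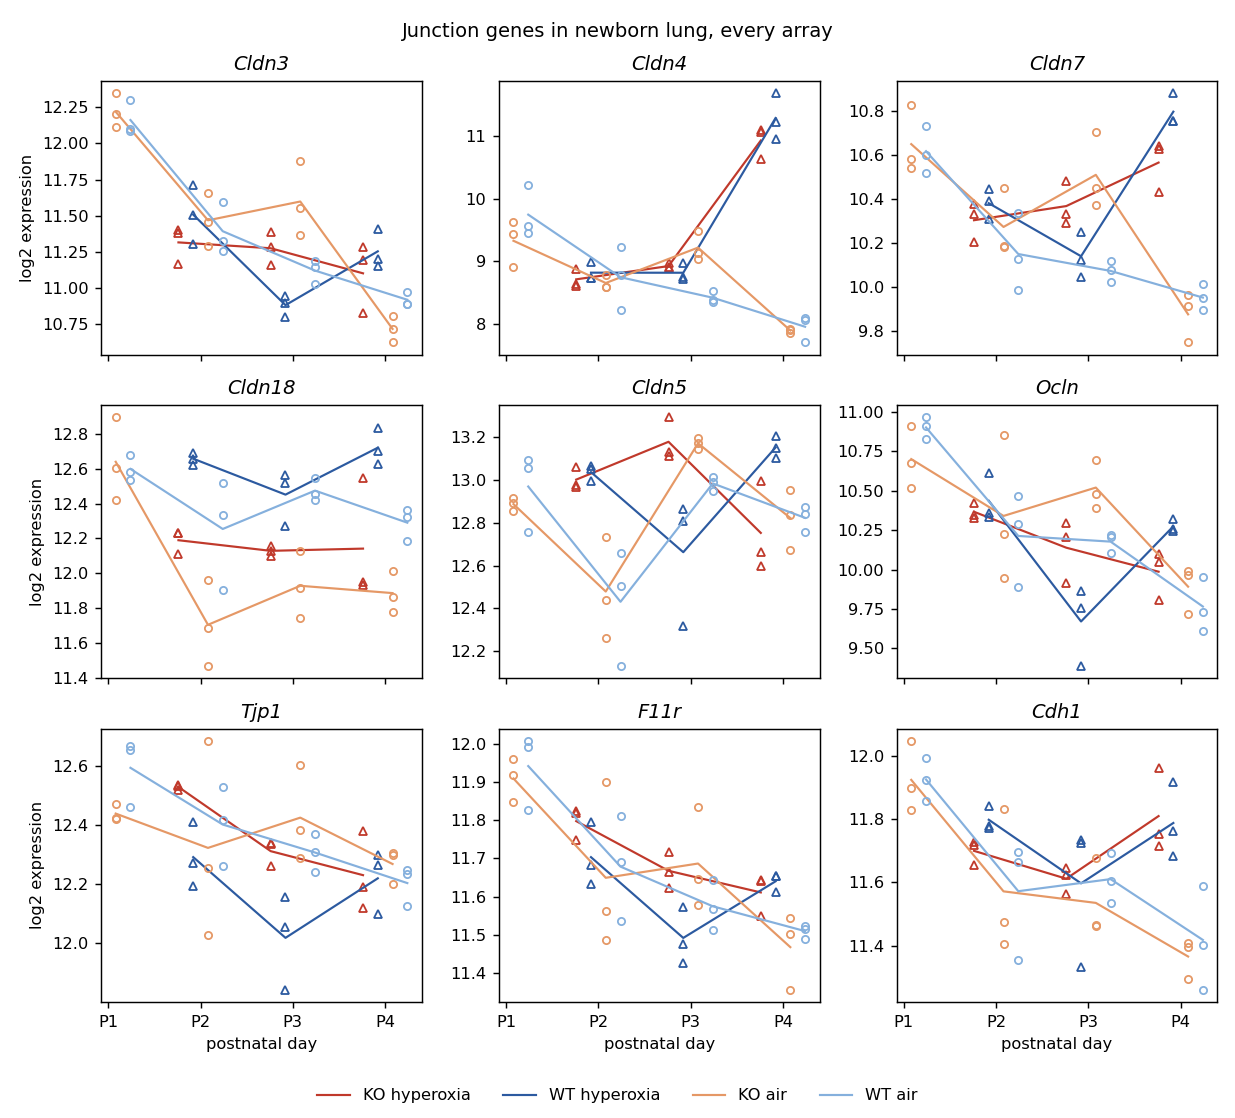
Log2 signal of the 9 members on every array, 1 panel per gene, with age from P1 to P4 on the x axis. Triangles (hyperoxia) and circles (air) are single mice, and lines join group means of 3, for KO and WT pups. Cldn4 at P4 stands near 11 in hyperoxia and near 8 in air in both genotypes, and Cldn18 sits lower in KO than in WT pups from P2 on.

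After 3 days of hyperoxia the epithelial claudins and E-cadherin rose in both genotypes, and Cldn4 rose most. In KO pups 4 of the 9 members were called higher than in air (Cldn4, Cldn7, Cdh1 and Cldn3; limma, adjusted p under 0.05), where 17.0% of all genes were called higher and 14.7% lower. In WT pups 7 of the 9 were higher (the same 4 plus Ocln, Cldn18 and Cldn5), where 15.0% of all genes were higher and 12.5% lower. The median change of the 9 members was 0.25 in KO and 0.37 in WT pups, against 0.04 and -0.03 over all genes. No member was called lower. In whole lung, fewer cells of a type and less RNA per cell cannot be told apart, and the same holds for more.

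Cldn4, a sealing claudin of alveolar and airway epithelium, read 11.10, 11.06 and 10.64 in KO pups after 3 days of hyperoxia and 7.86, 7.92 and 7.89 in KO pups in air. In WT pups it read 11.69, 10.96 and 11.23 in hyperoxia and 8.09, 8.05 and 7.70 in air. Every exposed mouse was thus more than 2 log2 units above every mouse of the same age in air. The change was 3.04 ± 0.20 (SE) or 8.24-fold in KO pups (adjusted p = 6.12e-13, limma) and 3.34 ± 0.20 or 10.1-fold in WT pups (adjusted p = 5.72e-14). At P4 the exposed pups also stood above the P1 pups of their genotype, which read 8.91, 9.43 and 9.63 in KO and 10.22, 9.44 and 9.57 in WT.

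Cldn7, an epithelial claudin found along the sides of the cells as well as in the junction itself, read 10.63, 10.43 and 10.64 in KO pups in hyperoxia and 9.97, 9.75 and 9.91 in KO pups in air. In WT pups the values were 10.75, 10.76 and 10.88 in hyperoxia and 9.95, 10.01 and 9.89 in air. The groups did not overlap in either genotype. Cldn7 was higher by 0.69 ± 0.10 or 1.61-fold in KO (adjusted p = 1.11e-06, limma) and by 0.84 ± 0.10 or 1.80-fold in WT pups (adjusted p = 3.47e-08).

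Cdh1 read 11.72, 11.96 and 11.75 in KO pups in hyperoxia and 11.41, 11.30 and 11.40 in KO pups in air. In WT pups it read 11.92, 11.76 and 11.68 in hyperoxia and 11.40, 11.59 and 11.26 in air. Exposed arrays were again all above their controls, by a smaller step than for the claudins above. The rise was 0.44 ± 0.11 or 1.36-fold in KO (adjusted p = 0.00163, limma) and 0.37 ± 0.11 or 1.29-fold in WT pups (adjusted p = 0.00901). The WT call was lost without WT air P4 replicate 3 (adjusted p = 0.0746), and also without WT hyperoxia P4 replicate 1.

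Ocln, a membrane protein of the tight junction, read 9.81, 10.10 and 10.05 in KO pups in hyperoxia and 9.99, 9.72 and 9.97 in KO pups in air. In WT pups it read 10.24, 10.26 and 10.32 in hyperoxia and 9.73, 9.95 and 9.61 in air. The groups overlapped in KO and not in WT pups. Ocln rose by 0.51 ± 0.16 or 1.42-fold in WT pups (adjusted p = 0.0162, limma) and differed by 0.09 ± 0.16 in KO pups (adjusted p = 0.704). The difference between the genotypes, -0.41, was not called (adjusted p = 0.392), and the other Ocln probe set gave -0.02 in WT pups (adjusted p = 0.956).

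Cldn3 rose by 0.38 ± 0.12 in KO pups (adjusted p = 0.0159, limma), which averaged 11.10 ± 0.24 (SD, n = 3) in hyperoxia and 10.72 ± 0.09 in air, and by 0.33 ± 0.12 in WT pups (adjusted p = 0.0407), which averaged 11.25 ± 0.13 and 10.92 ± 0.05. Cldn18 rose by 0.43 ± 0.14 in WT pups (adjusted p = 0.0222) and differed by 0.25 in KO pups (adjusted p = 0.179). The other Cldn18 probe set was called in KO pups (0.52, adjusted p = 0.021, limma) and not in WT pups (0.28, adjusted p = 0.27). The vascular claudin Cldn5 rose by 0.33 ± 0.13 in WT pups (adjusted p = 0.0485) and differed by -0.07 in KO pups (adjusted p = 0.723). Tjp1 and F11r were called in neither genotype, with -0.04 and 0.14 in KO and 0.02 and 0.13 in WT pups.

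Several of the smaller calls were lost when 1 array was left out, although the estimates below kept their sign. Without WT air P4 replicate 3, whose mean over 8 liver markers was 11.65 against 5.55 and 5.45 in the other two mice of its group, 2 of the 7 WT calls were left, Cldn4 and Cldn7, and Cldn3 (0.32, adjusted p = 0.0998), Ocln (0.43, adjusted p = 0.0841), Cldn18 (0.38, adjusted p = 0.0908) and Cldn5 (0.30, adjusted p = 0.142) were no longer called. Without WT hyperoxia P4 replicate 1 or 3, whose liver means were 10.93 and 9.49, 4 and 3 WT calls were left. The Cldn5 call was lost without any 1 of the 6 WT arrays, and the KO call of Cldn3 without KO hyperoxia P4 replicate 1 (0.29, adjusted p = 0.113), replicate 2 or KO air P4 replicate 2. The WT call of Cldn3 was also lost without WT air P4 replicate 1 (0.32, adjusted p = 0.103, limma) or replicate 2 (0.36, adjusted p = 0.0577), the arrays with low liver means. Without the arrays more than 2 units high in other organs, Cldn4 changed by 2.96 in KO and 2.90 in WT pups and Cldn7 by 0.66 and 0.74. Cldn3 was then at 0.29 in KO and 0.18 in WT pups. In WT pups Cdh1 was at 0.17, Ocln at 0.31, Cldn18 at 0.34 and Cldn5 at 0.23. This setting left 2 KO hyperoxia, 3 KO air, 1 WT hyperoxia and 1 WT air array, with the single arrays assumed to vary like the other groups.

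**Figure D2:**
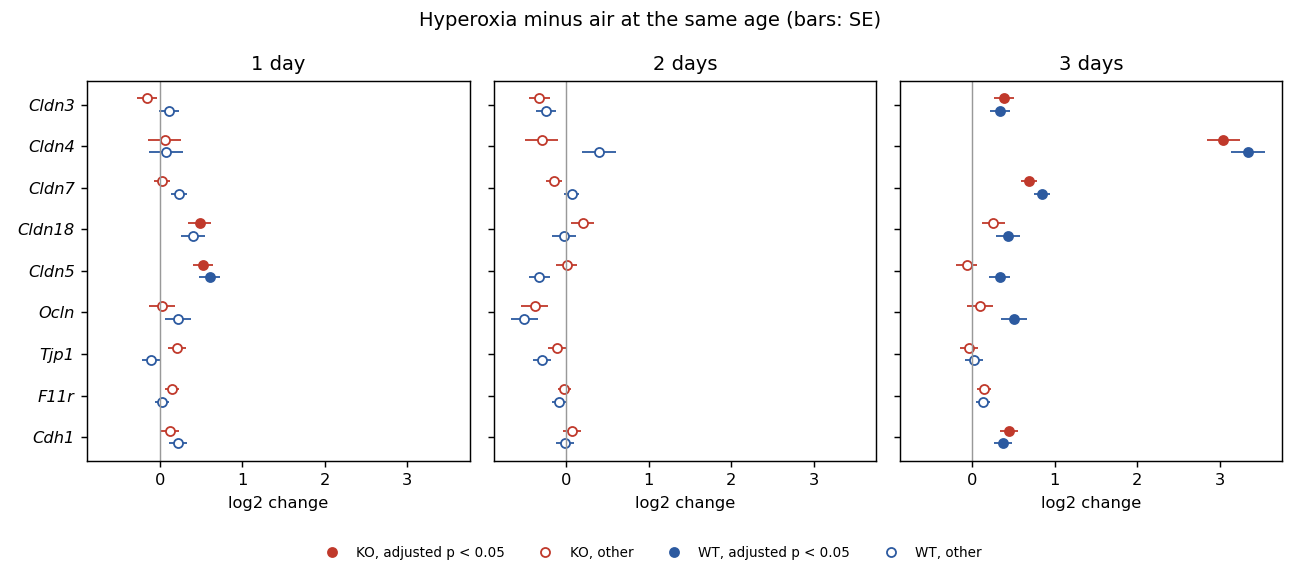
Log2 change in hyperoxia against air of the same age for the 9 members after 1, 2 and 3 days, 1 panel per duration, KO drawn above WT, with bars of 1 SE. Filled points were called at an adjusted p under 0.05. The changes of Cldn4 at 3 days, 3.04 in KO and 3.34 in WT pups, stand apart from all others.

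General epithelial markers moved in the same direction as the claudins. Of 6 such genes, 5 were called higher after 3 days in KO pups (median 1.37) and 5 in WT pups (median 1.05). Krt8, a keratin of simple epithelia, rose by 1.87 in KO and 1.54 in WT pups, and Epcam, an epithelial adhesion molecule, by 0.98 and 0.68, while the lung epithelial transcription factor Nkx2-1 differed by -0.08 and 0.03 and was not called. The mean level of the 6 markers was 10.99 to 11.08 in KO hyperoxia and 9.76 to 9.98 in KO air, and 10.86 to 11.13 in WT hyperoxia and 10.01 to 10.12 in WT air. For 11 alveolar type 2 markers the mean level was 12.45 to 12.68 in KO hyperoxia and 12.35 to 12.36 in KO air. In WT pups it was 12.21 to 12.42 in hyperoxia and 12.21 to 12.36 in air. For 7 ciliated markers it was 7.01 to 8.24 in KO hyperoxia and 7.55 to 7.78 in KO air, and 7.63 to 8.13 and 7.81 to 8.18 in WT pups. Alveolar type 1 markers were mixed (of 13, 4 higher and 3 lower in KO, 7 and 2 in WT pups), and of 15 endothelial markers 1 was higher and 5 lower in KO, and 1 higher and 4 lower in WT pups. All 5 club cell markers were lower in KO pups (median -1.34, mean level 11.54 in hyperoxia and 13.02 in air) and 3 of the 5 in WT pups (median -0.41, 12.79 in hyperoxia and 13.55 in air), and of 8 leukocyte markers 3 were higher in KO pups (mean level 10.53 in hyperoxia and 9.80 in air) and 4 in WT pups (10.61 and 9.99). Of 9 mesenchymal markers 2 were lower in KO, and 1 was higher and 4 lower in WT pups. The part of these shifts in the claudin values was not tested.

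Other junction genes showed no common direction after 3 days. Of 68 measured, 15 were higher and 13 lower in KO pups (median 0.10) and 19 higher and 11 lower in WT pups (median 0.05). Desmosomal genes were called in 1 direction, 5 of 10 higher in KO and 3 of 10 in WT pups with 0 lower. Of 15 other claudins 1 was higher and 2 lower in KO and 1 higher and 3 lower in WT pups. Of those 3, Cldn11 was near background in its mean over all arrays. In KO pups the largest rises were those of the desmosomal gene Perp (1.45), the JAM relative Igsf5 (1.06) and the tricellulin relative Marveld3 (0.98), and the largest falls those of Cldn10 (-1.11), the scaffold Mpdz (-0.96) and N-cadherin, Cdh2 (-0.90). In WT pups the polarity gene Pard6b (1.26), Igsf5 (1.03) and periplakin, Ppl (0.93), rose most, and Cldn8 (-1.32), the vascular connexin gene Gja4 (-1.27) and Cldn10 (-1.22) fell most. Cldn8 averaged 4.98 in WT and 5.25 in KO hyperoxia at P4, near the dim end of the arrays (4.27), which limits the size of its falls. The call of Cdh2 was lost without KO hyperoxia P4 replicate 2 (-0.70, adjusted p = 0.133, limma) or KO air P4 replicate 1 or 3, and that of Ppl without the arrays more than 4 units high in other organs (0.52, adjusted p = 0.0867), and Ppl rose by 0.58 without WT hyperoxia P4 replicate 1. Pard6b rose by 0.74 without the arrays more than 2 units high. With the mean of all probe sets Marveld3 was at 0.58 and Mpdz at -0.43 in KO pups.

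**Figure D3:**
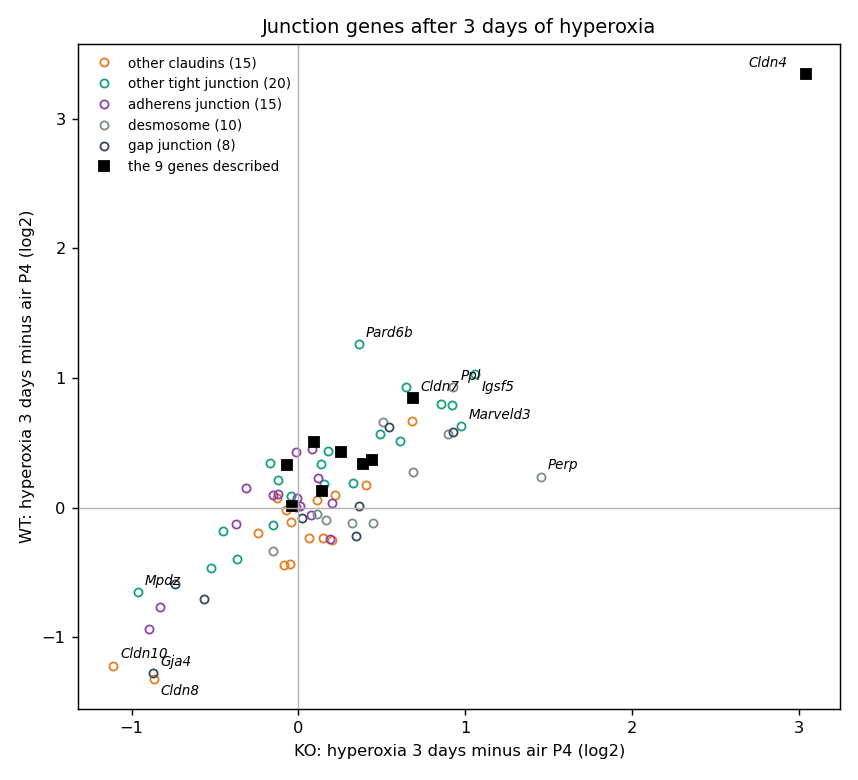
Log2 change after 3 days of hyperoxia in KO pups (x axis) and WT pups (y axis) for the 9 members and 68 other junction genes, with the largest labelled. The pairs of groups differ, so the axes share no arrays, and Cldn4 lies furthest up and right at 3.04 and 3.34.

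After 1 day of exposure the vascular claudin Cldn5 rose in both genotypes. In KO pups it read 13.06, 12.97 and 12.98 in hyperoxia and 12.44, 12.74 and 12.26 in air, and in WT pups 13.06, 13.05 and 13.00 in hyperoxia and 12.13, 12.50 and 12.66 in air. Neither pair of groups overlapped, and the air groups at P2 had the lowest means of all 14 groups for this gene. The change was 0.52 ± 0.13 or 1.44-fold in KO (adjusted p = 0.00671, limma) and 0.61 ± 0.13 or 1.52-fold in WT pups (adjusted p = 0.00376). Every WT air P2 array was more than 2 units high in other organs, so the WT change could not be fitted without such arrays. Replicate 1, with the lowest Cldn5 value, was high in heart muscle (2.30), skeletal muscle (2.14) and fat (2.77). Replicates 2 and 3 were high in liver (7.91 and 3.75). The part of these organs in the Cldn5 values was not tested.

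In KO pups 2 of the 9 members were called higher after 1 day (Cldn5 and Cldn18), where 5.73% of all genes were, and in WT pups 1 of 9, where 2.64% were. Cldn18 rose by 0.48 ± 0.14 in KO pups (adjusted p = 0.0274, limma) and differed by 0.40 in WT pups (adjusted p = 0.104). Cldn4 was at 0.06 in KO and 0.07 in WT pups, and its groups overlapped. In KO pups 4 of 15 endothelial markers rose on the same day, among them the VEGF receptor Flt1 (0.70) and endoglin, Eng (0.56), and in WT pups 2 did, Eng (0.53) and Egfl7 (0.46), and their part in the Cldn5 values was not tested.

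The KO groups at P2 differed in thymus RNA. The mean of 8 thymocyte markers was 9.74, 7.05 and 8.79 in KO pups in air at P2, and 7 of the 8 were called lower after 1 day of hyperoxia. Without KO air P2 replicate 3 the change of Cldn5 was 0.42 (adjusted p = 0.0735, limma) and that of Cldn18 0.37 (adjusted p = 0.194), and without all arrays high in other organs they were 0.27 and 0.23, so no KO call was left. The Cldn18 call was also lost without KO air P2 replicate 1 or any 1 of the 3 exposed KO arrays. The other Cldn18 probe set gave 0.23 in KO pups (adjusted p = 0.507, limma). Without KO air P2 replicate 2, 4 members were called, with Tjp1 (0.39) and F11r (0.27) added, and without WT air P2 replicate 3 Cldn18 was called in WT pups too (0.54, adjusted p = 0.0333).

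After 2 days 0 of the 9 members were called in KO pups (12.6% of all genes were) and 0 in WT pups (5.40%). Most estimates lay below 0. Ocln differed by -0.38 in KO (adjusted p = 0.124, limma) and -0.51 ± 0.16 in WT pups (adjusted p = 0.0591), and Cldn3 by -0.32 (adjusted p = 0.0839) and -0.24 (adjusted p = 0.31). Cldn4 differed by -0.30 in KO and 0.40 in WT pups and was called in neither, with KO arrays at 8.89 to 8.96 in hyperoxia and 9.03 to 9.48 in air. Without KO air P3 replicate 1 Cldn3 was called lower in KO pups (-0.44, adjusted p = 0.0283), and without WT hyperoxia P3 replicate 2 Ocln was in WT pups (-0.60, adjusted p = 0.0469).

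In room air most members fell in the first days after birth. Between P4 and P1, 7 of the 9 were lower at P4 in KO pups (13.5% of all genes were lower and 8.09% higher) and 7 of the 9 in WT pups (11.3% lower and 11.2% higher). Cldn3, Cldn4, Cldn7, Ocln, F11r and Cdh1 fell in both, Cldn18 was called in KO and Tjp1 in WT pups, and Cldn5 in neither (-0.07 in KO, -0.15 in WT). The median change was -0.75 in KO and -0.51 in WT pups, against -0.06 and 0.01 over all genes.

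Cldn3, which seals alveolar and airway epithelium, read 12.11, 12.20 and 12.35 in KO pups at P1, averaged 11.47 at P2 and 11.60 at P3, and read 10.81, 10.63 and 10.72 at P4. In WT pups it read 12.30, 12.10 and 12.09 at P1, averaged 11.39 at P2 and 11.12 at P3, and read 10.89, 10.98 and 10.89 at P4. P1 arrays were above all later ones in both genotypes. The fall at P4 was -1.50 ± 0.12 or 0.353-fold in KO (adjusted p = 3.51e-09, limma) and -1.24 ± 0.12 or 0.422-fold in WT pups (adjusted p = 1.59e-08).

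Cldn4 fell by 1.44 ± 0.20 on the log2 scale in KO pups (adjusted p = 3.47e-06, limma) and by 1.80 ± 0.20 in WT pups (adjusted p = 9.83e-08). Its course between these ages differed: in KO pups group means were 9.33, 8.65, 9.22 and 7.89 from P1 to P4, and in WT pups 9.74, 8.74, 8.41 and 7.95. The P4 values of Ocln in air are given above, and at P1 it read 10.67, 10.52 and 10.91 in KO and 10.83, 10.91 and 10.96 in WT pups, so that P4 and P1 arrays did not overlap. It fell by 0.81 ± 0.16 in KO (adjusted p = 0.000352) and by 1.13 ± 0.16 in WT pups (adjusted p = 2.79e-06). The other Ocln probe set gave smaller changes, -0.48 in KO and -0.41 in WT pups, both still called.

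The remaining falls were smaller. Cldn7 fell by 0.77 in KO and 0.67 in WT pups, Cdh1 by 0.56 and 0.51, and F11r, whose product JAM-A also serves leukocyte passage, by 0.44 and 0.43. Tjp1 changed by -0.39 in WT pups (adjusted p = 0.00775, limma) and was at -0.17 in KO pups (adjusted p = 0.284), and its WT call was lost without the arrays more than 4 units high in other organs (-0.32, adjusted p = 0.151). Cldn18 fell by 0.75 ± 0.14 in KO pups (adjusted p = 0.000198) and differed by -0.31 in WT pups (adjusted p = 0.13). With the other Cldn18 probe set WT pups were at -0.56 and called (adjusted p = 0.0168, limma). The KO call was kept with that probe set, whose KO means were 11.91 at P1 and 11.38 at P4. No member passed the test of a genotype difference in this course, for which 0.0275% of all genes were called, and the interval for Cldn18 was -0.85 to -0.03 (adjusted p = 0.435); with array weights Cldn18 was called (-0.54, adjusted p = 0.0422).

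Against P1, 7 members were called lower at P2 in KO pups (6.47% of all genes) and 7 in WT pups (8.25%), and at P3 3 were called in KO (12.8% of all genes were called in either direction) and 6 in WT pups (20.6%), all lower. With the other probe sets the P3 calls of Cldn18 in KO (-0.19, adjusted p = 0.542, limma) and Ocln in WT pups (-0.20, adjusted p = 0.359) were lost. Those of Cdh1 at P3 were lost in 5 of 16 alternatives in KO and 5 of 15 in WT pups. Cldn5 had its low point at P2, with -0.41 in KO and -0.54 in WT pups against P1, and at P3 it was at 0.28 (adjusted p = 0.141, limma) and 0.01. Cldn4 at P3 was at -0.11 in KO pups and at -1.33 in WT pups. All 7 KO calls at P2 were lost without the arrays more than 2 units high in other organs, which left 1 KO air P2 array, with Cldn3 at -0.56 (adjusted p = 0.112, limma), Cldn4 at -0.73 (adjusted p = 0.128), Cldn18 at -0.68 (adjusted p = 0.113), Cldn5 at -0.15, Cldn7 at -0.20, Cdh1 at -0.09 and F11r at -0.01, and the thymocyte means of these KO mice are given above. In WT pups, where no array was left for that setting, 6 of the 7 P2 calls were lost with only the arrays of the comparison, all but that of Cldn3. In KO pups all 7 P2 calls were also lost with only the arrays of the comparison, and again with organ scores as covariates.

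Epithelial and other junction genes declined over the same days. Of 6 general epithelial markers 5 in KO and 6 in WT pups were lower at P4 than at P1, as were 10 of 11 type 2 markers in both and, of 13 type 1 markers, 10 in KO and 12 in WT pups; their part in the claudin values was not tested. Of the 68 other junction genes 4 were higher and 29 lower in KO pups (median -0.27), and 6 higher and 22 lower in WT pups (median -0.21). Cldn23 (-1.12), Perp (-1.11) and Marveld3 (-1.01) fell most in KO pups and Pard6b (-1.49), Ppl (-1.07) and Cldn23 (-1.06) in WT pups. Mpdz (0.66 in KO, 0.56 in WT), Jam3 (0.52, 0.63) and Cdh11, a mesenchymal cadherin (0.50, 0.53), rose most in both. With the mean of all probe sets Mpdz rose by 0.34 in KO and 0.24 in WT pups and Jam3 by 0.26 and 0.29. Marveld3 was then at -0.62 in KO pups. The KO call of Perp was lost without any 1 of 5 of the 6 arrays (adjusted p = 0.0533 to 0.108, limma).

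Between the genotypes Cldn18 was the member that differed most. Averaged over P1 to P4 in air, 1 member was lower in KO than in WT pups (Cldn18; 14.4% of all genes were lower) and 1 higher (Cldn7; 14.5% were higher). Averaged over days 1 to 3 of hyperoxia, 1 was lower (again Cldn18; 6.18%) and 0 were higher (6.30%). The median difference over the 9 members was 0.04 in air and 0.02 in hyperoxia, against 0.01 and 0.01 over all genes.

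In air at P1 the genotypes overlapped, with Cldn18 at 12.89, 12.42 and 12.60 in KO and 12.54, 12.68 and 12.58 in WT pups. At P2 it read 11.69, 11.96 and 11.47 in KO and 11.91, 12.34 and 12.52 in WT pups, which overlapped in 1 KO mouse. At P3 it read 11.92, 11.74 and 12.13 in KO and 12.46, 12.55 and 12.42 in WT pups, and at P4 11.78, 11.87 and 12.01 in KO and 12.32, 12.37 and 12.19 in WT pups, with all KO arrays below all WT arrays on both days.

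Under hyperoxia Cldn18 read 12.11, 12.23 and 12.23 in KO and 12.62, 12.66 and 12.69 in WT pups on day 1. On day 2 it read 12.16, 12.10 and 12.13 in KO and 12.27, 12.52 and 12.56 in WT pups, and on day 3 11.93, 11.95 and 12.55 in KO and 12.63, 12.70 and 12.83 in WT pups. The genotypes did not overlap on any of the 3 days, although 1 KO mouse on day 3 came close.

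The mean difference was -0.36 ± 0.07 (0.777-fold, adjusted p = 0.00027, limma) in air and -0.46 ± 0.08 (0.729-fold, adjusted p = 0.000253) in hyperoxia. By age in air it was 0.04 at P1 (not called), -0.55 at P2 (adjusted p = 0.00895), -0.55 at P3 (adjusted p = 0.00549) and -0.40 at P4 (adjusted p = 0.214). By day of hyperoxia it was -0.47 (adjusted p = 0.0684), -0.32 (adjusted p = 0.203) and -0.58 (adjusted p = 0.00886). The P2 call was lost without WT air P2 replicate 3 or KO air P2 replicate 3, and the day 3 call without KO hyperoxia P4 replicate 1 or 2, with values from -0.42 to -0.48. The P3 call was lost without the arrays more than 2 units high in other organs (-0.54, adjusted p = 0.124, limma) or more than 4 units high (-0.41, adjusted p = 0.132) and with organ scores as covariates (-0.34, adjusted p = 0.133), the P2 call with the limit of 4 (-0.39, adjusted p = 0.185) or covariates (-0.49, adjusted p = 0.255), and the day 3 call with the limit of 2 (-0.45, adjusted p = 0.226).

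**Figure D4:**
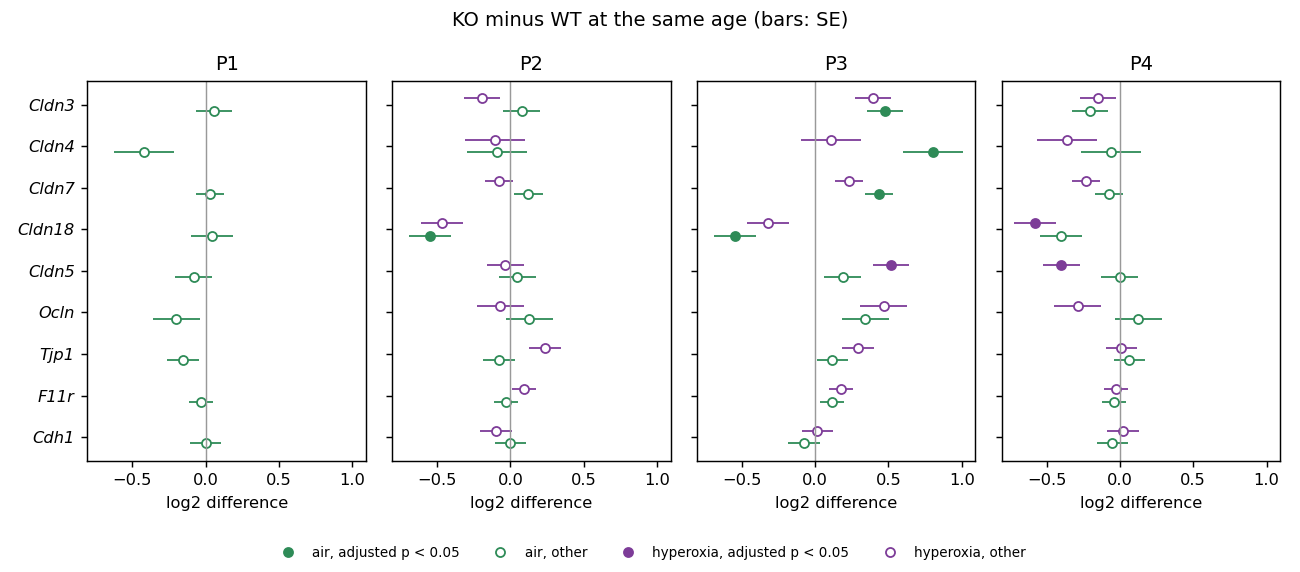
Log2 difference of KO minus WT pups for the 9 members, 1 panel per age from P1 to P4, in hyperoxia and in air, with bars of 1 SE. Filled points were called at an adjusted p under 0.05. Cldn18 lies near 0 at P1 and below 0 at every later age, and at P3 in air Cldn3, Cldn4 and Cldn7 lie above 0.

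A second Cldn18 probe set did not show this difference. It gave -0.07 in air (adjusted p = 0.535, limma) and 0.00 in hyperoxia (adjusted p = 0.986). The brighter probe set exceeded the other on every array but KO hyperoxia P4 replicate 2 (-0.11), and the size of this excess is a description. At P1 in air it was larger in KO pups, with 0.73 ± 0.15 (SD, n = 3) in KO and 0.49 ± 0.09 in WT pups. At P2, P3 and P4 in air it was 0.14, 0.21 and 0.51 in KO pups, and 0.67, 0.84 and 0.74 in WT pups. On days 1, 2 and 3 of hyperoxia it was 0.39, 0.52 and 0.24 in KO pups, and 0.72, 0.92 and 0.89 in WT pups, so the excess was smaller in KO than in WT pups in every group after P1. RefSeq lists 2 Cldn18 starts, whose windows begin at different places on chromosome 9 (99710064 and 99717268); which transcripts the probe sets read is not given in the sources used here, and what sets the probe sets apart was not tested.

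**Figure D5:**
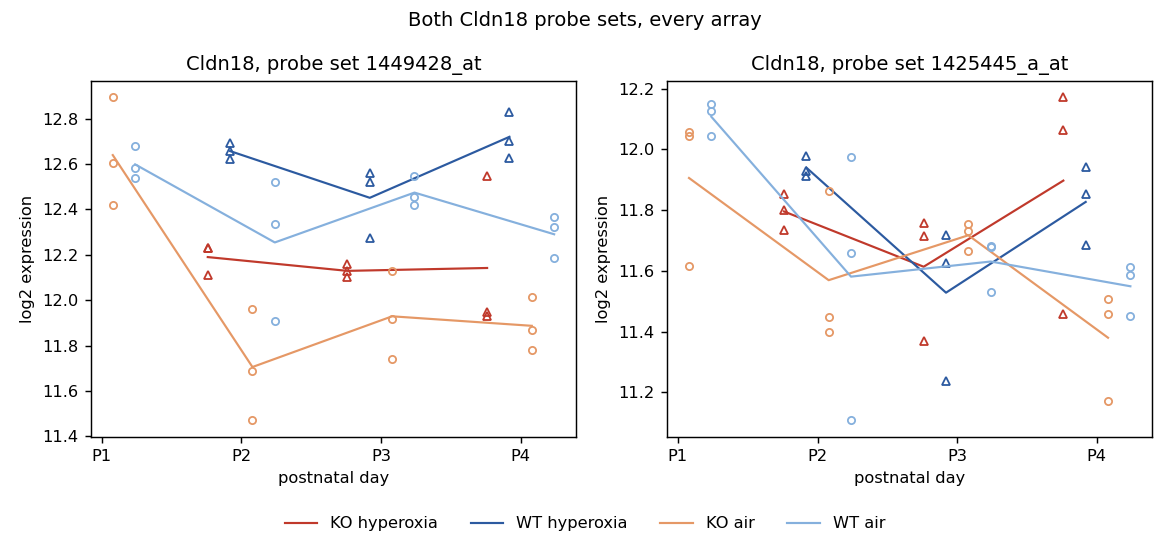
Log2 signal of the 2 Cldn18 probe sets on every array against age, 1 panel per probe set, with points for single mice and lines through group means of KO and WT pups in hyperoxia and air. The brighter probe set, in the left panel, is lower in KO pups by 0.36 in air and 0.46 in hyperoxia, and the other differs by -0.07 and 0.00.

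At P3 in air 3 claudins were higher in KO than in WT pups (8.99% of all genes were higher) while Cldn18 was lower (12.7% were lower). Cldn4 was higher by 0.80 ± 0.20 or 1.74-fold (adjusted p = 0.00439, limma), with KO arrays at 9.03, 9.14 and 9.48 and WT arrays at 8.52, 8.35 and 8.37. Cldn7 was higher by 0.44 ± 0.10 (adjusted p = 0.00125) and Cldn3 by 0.48 ± 0.12 (adjusted p = 0.00507), and neither overlapped between the genotypes. Ocln stood at 0.34 (adjusted p = 0.132), and its other probe set at -0.38 (adjusted p = 0.04).

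These P3 groups also differed in other tissues. The mean of 9 skeletal muscle markers was 6.81, 11.63 and 8.51 in KO and 6.51, 6.54 and 6.41 in WT pups, and 6 of the 9 were called higher in KO. Without the arrays more than 2 units high in any other organ, which left 1 KO and 1 WT array, the differences were 0.52 for Cldn4 (adjusted p = 0.193, limma), 0.33 for Cldn7 (adjusted p = 0.207) and 0.34 for Cldn3 (adjusted p = 0.244) and -0.54 for Cldn18 (adjusted p = 0.124), so that none of the 4 was called. The Cldn3 call was also lost without KO air P3 replicate 3 (0.34, adjusted p = 0.07). The single arrays left in each group were assumed to vary like the other groups.

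At the other ages in air 0 of the 9 members differed between the genotypes at P1 (6.78% of all genes did) and 0 at P4 (0.726%), and at P2 Cldn18 alone was lower (5.17%). The mean difference of Cldn7 in air, 0.13 ± 0.05 or 1.09-fold (adjusted p = 0.0424, limma), rested on P3, since it was 0.03, 0.12 and -0.07 at P1, P2 and P4, and it was lost in 15 of 33 alternatives, 13 of them with 1 array left out.

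In hyperoxia 0 members differed on day 1 (2.96% of all genes). On day 2 Cldn5 was higher in KO pups (3.10% of all genes were higher), at 13.13, 13.11 and 13.29 in KO and 12.32, 12.81 and 12.86 in WT pups, a difference of 0.52 ± 0.13 (adjusted p = 0.0122, limma). On day 3 2 members were lower in KO pups, Cldn18 and Cldn5 (6.14% were lower), and Cldn5 read 12.60, 12.66 and 13.00 in KO and 13.15, 13.10 and 13.21 in WT pups, a difference of -0.40 ± 0.13 (adjusted p = 0.0386). The groups did not overlap on either day, and the sign was opposite. The day 2 call was lost without WT hyperoxia P3 replicate 1 (0.34, adjusted p = 0.145) or KO hyperoxia P3 replicate 3, and the day 3 call without any 1 of 5 of the 6 arrays.

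Tests of a genotype difference in the effect of hyperoxia itself called no member. Over the mean of the 3 days 0 of the 9 passed (1.19% of all genes did), with 0 on day 1 (2.69%), day 2 (1.76%) and day 3 (0.561%). For Cldn4 the mean difference was -0.34 ± 0.17, with a 95% interval of -0.68 to 0.00 (adjusted p = 0.369, limma), and on day 3 it was -0.30 with an interval of -0.89 to 0.29 (adjusted p = 0.651). On day 2 the Cldn4 difference was -0.70 with an interval of -1.28 to -0.11 (adjusted p = 0.237), and it was called with only the arrays of the comparison (adjusted p = 0.0448) and with array weights (-0.92, adjusted p = 0.00407). For Cldn18 it was 0.04 with an interval of -0.19 to 0.28 (adjusted p = 0.929). On day 1 Tjp1 was called without KO air P2 replicate 2 (0.50, adjusted p = 0.0152). At this number of mice a difference of up to 0.89 log2 units in the 3-day rise of Cldn4 lies within the interval.

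As a description, the 9097 genes of at least median level were ranked by Pearson's r with each member over the 14 group means, which share ages and treatments. Cldn4 was most like Sbds (r = 0.973), Commd2 (0.972) and Stat3 (0.971), and Cldn7 most like Tmem115 (0.955), Mab21l4 (0.952) and Lmo7 (0.947). Cldn3 was most like Tfcp2l1 (0.956), Vamp8 (0.953) and Slc37a1 (0.952), and F11r most like Slc37a1 (0.960), Cldn3 (0.940) and Cav2 (0.937). Cldn5 was most like Spry1 (0.941), Rapgef5 (0.936) and Tpst2 (0.925), and Ocln most like Cry2 (0.944), the tricellulin gene Marveld2 (0.943) and Slc37a1 (0.940).

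Cdh1 was most like Plp2 (0.951), Ncf1 (0.940) and Tmem139 (0.936), Tjp1 most like Atrnl1 (0.928), Tbc1d17 (0.921) and Tecpr1 (0.900), and Cldn18 most like Fam234a (0.892), Rabgef1 (0.884) and Cdipt (0.859). Among the 36 pairs of members the highest values were those of Cldn3 with F11r (0.940) and with Ocln (0.934), and of Ocln with F11r (0.919). Cldn4 with Cldn7 stood at 0.862, while Tjp1 stood at 0.01 with Cldn4 and -0.01 with Cldn18.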

How the data were processed

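Lung RNA of 42 newborn mice was hybridised 1 mouse per array. The deposited table holds log2 values for 45101 probe sets; GCOS and RMA are named per the submitters' processing notes, with no versions. RMA corrects background, gives all arrays one distribution and summarises probes, so a shift shared by most genes would not show. The log2 values were used as deposited. Groups and replicates came from the sample titles, so replicates are mice. Probe sets with 1 symbol (34958) were kept, those with several (932) or none (9211) were not, and a gene with several was read by the one of highest mean over all arrays, leaving 18194 genes.

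All arrays were fitted with 14 group means in limma 3.58.1 (R 4.3.3, with the data.table package at 1.17.8; lmFit, contrasts.fit, eBayes; 31.4 degrees of freedom after moderation). P-values were two-sided and adjusted by Benjamini-Hochberg over all genes, with calls at an adjusted p under 0.05. Precision is limited by the number of arrays. Members, gene lists and tests were chosen with earlier results of these data known. All members are named; every array is given for the 3 called members of largest change in the 3-day, mean genotype and P4 against P1 comparisons. For other junction genes the 3 largest called rises and falls are named, and for likeness the 3 highest r; Cldn5 arrays, single-day Cldn18 values and marker genes were added after their values were seen. The procedure was tested on simulated data. Alternatives were cyclic loess, array weights, robust variances with an intensity trend, the upper 60 percent of genes by level, the mean of all probe sets, only the arrays of the comparison, the replicate number as a block, other-organ scores as a limit or covariates, and leaving out each array.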

Additional observations from a re-analysis of the deposited data

How the results depend on the processing

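The 3-day rises of Cldn4 and Cldn7 were called in both genotypes under every alternative run. So were the falls from P1 to P4 of Cldn3, Cldn4, Cldn7, Ocln and Cdh1. The lower Cldn18 in KO pups lost its call in 1 of 34 alternatives in air, the other probe set (-0.07). In hyperoxia it was lost in 2 of 29, the other probe set (0.00) and the mean of all probe sets (-0.23). The alternatives that kept it used the brighter probe set, but for the mean of all probe sets in air. Over all called member values 191 of 1063 alternative values lost the call and 6 changed sign. Single arrays and transcripts of other organs limit the smaller calls. Leaving out arrays more than 2 units high in other organs could not be run for comparisons that use WT pups in air at P1 or P2, where no array was left. A limit of 4 units, each other probe set on its own, the single-day comparisons and the alternatives of other junction genes were added after seeing the data.

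Members called of 9 moved as follows. After 1 day, KO (2 called) gave 1 with the mean of probe sets and 0 with only the arrays of the comparison, with organ scores as covariates and with either limit, and 0 to 4 with 1 array left out; WT (1) gave 0 with only its own arrays and 1 to 2 with 1 array left out. After 2 days, KO (0) gave 2 with loess, 3 with array weights, 1 with covariates and 0 to 1 with 1 array left out, and WT (0) gave 1 with loess, the upper 60 percent or the mean of probe sets, 3 with array weights and 0 to 1 with 1 array left out. After 3 days, KO (4) gave 5 with the mean of probe sets, Cldn18 added (0.39, adjusted p = 0.0436), 3 with only its own arrays or a limit of 2 and 3 to 4 with 1 array left out, and WT (7) gave 5 with the mean of probe sets, 4 with covariates, 2 with either limit and 2 to 6 with 1 array left out. KO against WT in air (2) gave 1 with only its own arrays or a limit of 4 and 1 to 2 with 1 array left out. KO against WT in hyperoxia (1) gave 2 with loess, trend and robust variances, array weights, the upper 60 percent, only its own arrays or a limit of 2, 0 with the mean of probe sets and 1 to 2 with 1 array left out. From P1 to P4 both genotypes (7) gave 7 with any 1 array left out; KO gave 7 in every other alternative, and WT gave 8 with array weights, the mean of probe sets, only its own arrays or covariates, Cldn18 added, and 6 with a limit of 4. The genotype difference in the hyperoxia effect, as the mean of the 3 days, gave 0 throughout, while by day Cldn4 (-0.92 with array weights, -0.70 with only its own arrays) and Cldn7 (-0.36 with array weights, adjusted p = 0.0263) were called on day 2 and Tjp1 on day 1 without KO air P2 replicate 2.

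Signs turned for the other probe set of Cldn18 (0.0037 in hyperoxia, 0.0702 on day 3 and 0.0864 at P3 in air, KO minus WT), of Ocln (-0.0165 in WT pups after 3 days, -0.3833 for KO minus WT at P3) and of F11r (0.0099 for P4 against P1 in KO pups, at a level near background), and for F11r with covariates (0.0663 for P2 against P1 in KO pups). The cause was not tested. Replicate numbers did not pair the mice: arrays of 1 number in different groups had a median r of 0.0124 between their deviations, against 0.0146 for different numbers, and 13 of 42 correlated best with their own number. With the replicate block the count in hyperoxia was 2, with Tjp1 added (0.18, adjusted p = 0.0359), and of the single-day and single-age results it added Cldn3 on day 2 (0.39 for KO minus WT, adjusted p = 0.0438) and Tjp1 in WT pups (-0.29 for P3 against P1, adjusted p = 0.039); it lost no call.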

Other observations

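Some known regulators of junction genes were called after 3 days of hyperoxia (limma over all genes, calls at an adjusted p under 0.05). Of 19 listed, 4 were higher and 6 lower in KO pups, and 4 higher and 5 lower in WT pups. Over all genes 17.0% were higher and 14.7% lower in KO, and 15.0% and 12.5% in WT pups. The epithelial transcription factors Klf5 (0.92 in KO, 1.22 in WT) and Elf3 (0.68, 0.63), the splicing factor Esrp2 (0.62, 0.85) and the repressor Snai1 (0.75, 0.57) rose. Snai2 (-1.15, -1.32), Elf5 (-0.88, -0.91), Zeb2 (-0.80, -0.96), Sox17 (-0.73, -0.96) and Zeb1 (-0.26, -0.26) fell. Yap1, the effector of the Hippo pathway, was called lower in KO pups (-0.22, adjusted p = 0.0415) and not in WT pups (-0.12, adjusted p = 0.31), and Grhl2 was called in neither (-0.04, -0.16).

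Among 15 other claudins Cldn12 was the 1 called higher after 3 days in both genotypes (0.68 in KO, 0.67 in WT). Cldn10 and Cldn8 (-0.87 in KO, -1.32 in WT) were lower in both. The other claudin called lower in WT pups, Cldn11, was near background in its mean over all arrays. In air, KO pups had higher Jup (0.50), Pard6b (0.40) and Nectin1 (0.33) and lower Gjb1 (-0.63), Dsg2 (-0.45) and Dsp (-0.42), the largest of 14 higher and 11 lower among the 68 other junction genes (median 0.02). In hyperoxia 7 were higher and 0 lower in KO pups. Over all genes 14.5% were higher and 14.4% lower in air, and 6.30% and 6.18% in hyperoxia. Liver RNA was unequal between these groups, with group means of 8 liver markers from 5.56 to 7.28 in KO and from 7.55 to 9.65 in WT pups in air. Heart RNA was too, with group means of 11 heart markers from 9.12 to 9.88 in KO and from 9.67 to 10.97 in WT pups. Gjb1 read 9.68 on WT air P2 replicate 2 and 6.17 and 6.50 on the other two arrays of its group; its difference was -0.35 without that array, its call was lost without any 1 of 5 other arrays, and it was not called without the arrays more than 4 units high in other organs (-0.19, adjusted p = 0.0701, limma). With organ scores as covariates Gjb1 (-0.26), Dsg2 (-0.30, adjusted p = 0.145) and Dsp (-0.10, adjusted p = 0.441) were not called, nor were these and Pard6b (0.25) with the mean of all probe sets. Nectin1 was at 0.17 with that mean.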
